A study of Homo sapiens with 2 samples.

Results

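The PGC-1 coactivators, the PPAR and ERR nuclear receptors they work with, and 2 regulators of mitochondrial gene expression were examined as a set of 10 genes, out of 18417 genes that could be named on the arrays. The set was chosen by symbol: the coactivators PPARGC1A, PPARGC1B and PPRC1, the receptors PPARG, PPARA, PPARD, ESRRA and ESRRG, and the regulators NRF1 and TFAM. PPARG and PPARGC1A were included because they are reported targets of miR-130b, and the set was drawn up with earlier results of these arrays known, so its values are descriptions without a test. All 10 genes were measured, each by 1 probe set.

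The RNA was immunoprecipitated from the human lung adenocarcinoma line A549, an established line, through Argonaute2 (Ago2), the protein in which a microRNA sits while it pairs with mRNAs. Of the 2 samples, 1 was transfected with an empty vector and 1 with miR-130b, which it overexpressed, and each was measured on 1 array. The comparison asks how overexpressed miR-130b altered the mRNAs found with Ago2. Input RNA was not analysed here, so more or less of an mRNA in the cells and more or less of it on Ago2 cannot be told apart, nor can fewer expressing cells and less RNA per cell.

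PGC-1 proteins do not bind DNA themselves. They dock on nuclear receptors and other transcription factors and recruit the machinery that raises transcription, and they are best known for driving mitochondrial biogenesis, fatty acid oxidation and, in liver, glucose production. PPARs are lipid-sensing receptors that bind DNA with RXR partners, ERRs are orphan receptors that act without a known natural hormone, NRF1 (nuclear respiratory factor 1) activates nuclear genes of the respiratory chain, and TFAM packages and helps transcribe mitochondrial DNA. In lung epithelium PPARG is linked to lipid handling and differentiation.

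The microRNA and its relatives are shown because all of them would pair through the same seed, bases 2 to 8, given in capitals. Of 2545 mature human microRNAs in the RefSeq table (GRCh38.p14), 6 carried this seed, and an mRNA site that matches it reads TTGCACT in DNA letters. The bases after the seed differ among these 6. The list holds only microRNAs of the RefSeq table, so others with the same seed may be missing from it.
miR-130b-3p (chr22:21653354-21653375, plus strand): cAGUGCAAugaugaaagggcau
miR-301b-3p (chr22:21653025-21653047, plus strand): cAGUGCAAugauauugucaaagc
miR-301a-3p (chr17:59151149-59151171, minus strand): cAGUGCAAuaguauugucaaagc
miR-454-3p (chr17:59137787-59137809, minus strand): uAGUGCAAuauugcuuauagggu
miR-4295 (chr10:112634180-112634197, plus strand): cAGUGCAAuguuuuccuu
miR-3666 (chr7:114653373-114653393, plus strand): cAGUGCAAguguagaugccga

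The labels state that miR-130b was overexpressed. The probe set of the microRNA's own gene, MIR130B, stood at 6.66 without and 12.64 with overexpression on the log2 scale. AGO2 mRNA stood at 11.41 and 11.66. Both arrays had a median of 7.77 over their 33297 probe sets. The files give no detection call, so 341 genes for olfactory receptors, sensory proteins of the nose, served as a guide to background: their 95th percentile was 7.08 on the empty-vector array and 7.17 on the other. MIR130B without overexpression lay under that level. Of 10 markers of A549 epithelium, 9 lay above that level on at least 1 array, EPCAM being the exception (7.00 and 6.80), and CDH1 differed by -1.12. Of markers of other cell types, 3 of 5 for adipocytes, 2 of 4 for muscle, 1 of 5 for hepatocytes, 4 of 5 for fibroblasts and 2 of 5 for leukocytes lay above it on at least 1 array. Their mean level without and with miR-130b was 6.84 and 7.10 for adipocytes, 7.13 and 7.22 for muscle, 6.20 and 6.22 for hepatocytes, 6.72 and 7.00 for fibroblasts and 6.37 and 6.55 for leukocytes. The part of these markers in the results was not tested.

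PPARGC1A separated from the other members. Levels are log2 expression values, and a difference is the level with miR-130b minus that with the empty vector. With the empty vector PPARGC1A, which encodes PGC-1alpha, the inducible founding member of the family, stood at 10.07. With miR-130b it stood at 6.33, inside the range of the olfactory receptor genes, 73.6% of which were at or below that value. The measured difference was -3.74, but the lower level is under the 95th percentile of those genes, so the size of the decrease is uncertain. With levels under that percentile raised to it on both arrays, the difference was -2.89 (7.44-fold lower). That fold rests on the chosen floor and is no fixed minimum. The highest olfactory receptor gene stood at 8.21 on the miR-130b array, and a higher floor would give a smaller fold. As measured the decrease of PPARGC1A was the largest among all 18417 named genes, ahead of NIBAN1 at -3.59 and A1CF at -3.28. With the raised levels it ranked 4th, after NIBAN1 and A1CF, whose values did not change, and FGA at -2.93.

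**Figure D1:**
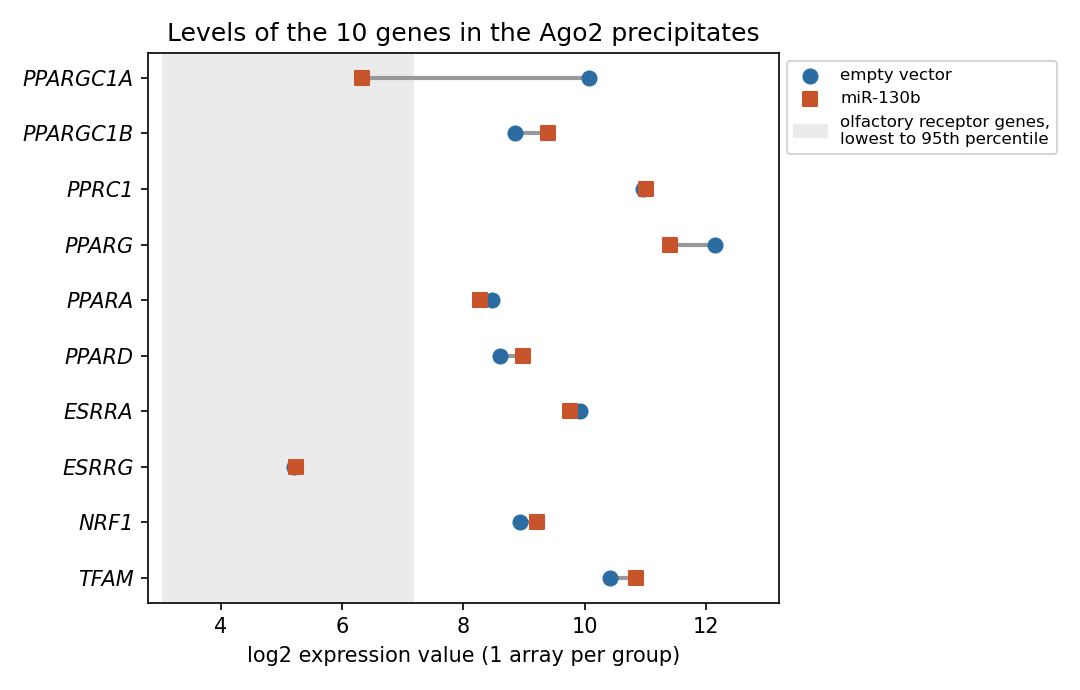
Log2 expression value of each of the 10 genes on the empty-vector array (circles) and the miR-130b array (squares), 1 array per group and no error bars. The grey band runs from the lowest olfactory receptor gene to the higher of the arrays' 95th percentiles (7.17). PPARGC1A moves from 10.07 into the band at 6.33, ESRRG lies in it on both arrays, and the distance between symbols is to be read within a gene, not between genes.

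The other coactivators showed no such decrease. PPARGC1B, which encodes PGC-1beta and shares much of PGC-1alpha's role in mitochondrial and lipid metabolism, stood at 8.85 on the empty-vector array and 9.39 on the other, higher by 0.53 (1.45-fold higher). PPRC1, which encodes the PGC-1-related coactivator PRC, a growth-responsive member, stood at 10.96 and 11.01, a difference of 0.05. The coactivators thus spanned -3.74 to 0.53, so their median of 0.05 describes none of them but PPRC1.

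With no replicates, the scale for small differences came from the arrays themselves. For 671 genes measured by more than 1 distinct probe set, the pooled SD of the difference within a gene was 0.19, which leaves out variation between cultures and precipitations. Only probe sets with identical values were counted once, and no member is among these genes, so the SD may not hold for the members. Of the 10 members, 4 differed by at least 2 such SDs (0.39): PPARGC1A, PPARG, PPARGC1B and TFAM. Of all named genes, 82.1% differed by less than that. TFAM drops under the limit after median centring (0.38) and PPARD passes it after quantile normalization (0.41).

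PPARG had the next largest decrease in the set. This receptor, the master regulator of fat cell formation, stood at 12.15 without and 11.41 with miR-130b, well above the olfactory receptor genes on both arrays. Its difference of -0.74 (1.67-fold lower) ranked 540th from the largest decrease among the 18417 genes. PPARA, the receptor that drives fatty acid oxidation in liver, stood at 8.47 and 8.27, a difference of -0.20 that was close to 1 SD between probe sets. PPARD, the broadly expressed PPAR, stood at 8.61 and 8.99, a difference of 0.38. Of the PPARs, PPARG alone differed by at least 2 SDs between probe sets on the values as deposited.

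ESRRA encodes ERRalpha, the main ERR partner of PGC-1alpha in mitochondrial gene control. It stood at 9.92 without and 9.76 with miR-130b, and the difference of -0.16 was under that SD of 0.19. ESRRG encodes ERRgamma, a receptor of oxidative tissues such as heart, and stood at 5.20 and 5.24. It lay under the 95th percentile of the olfactory receptor genes on both arrays, so no fold is given for it.

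Of the regulators of mitochondrial gene expression, TFAM differed by at least 2 SDs between probe sets and NRF1 did not. NRF1 stood at 8.94 on the empty-vector array and 9.21 on the other, a difference of 0.27. TFAM stood at 10.42 and 10.85, a difference of 0.43 (1.35-fold higher), and 6.86% of named genes had a larger increase.

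**Figure D2:**
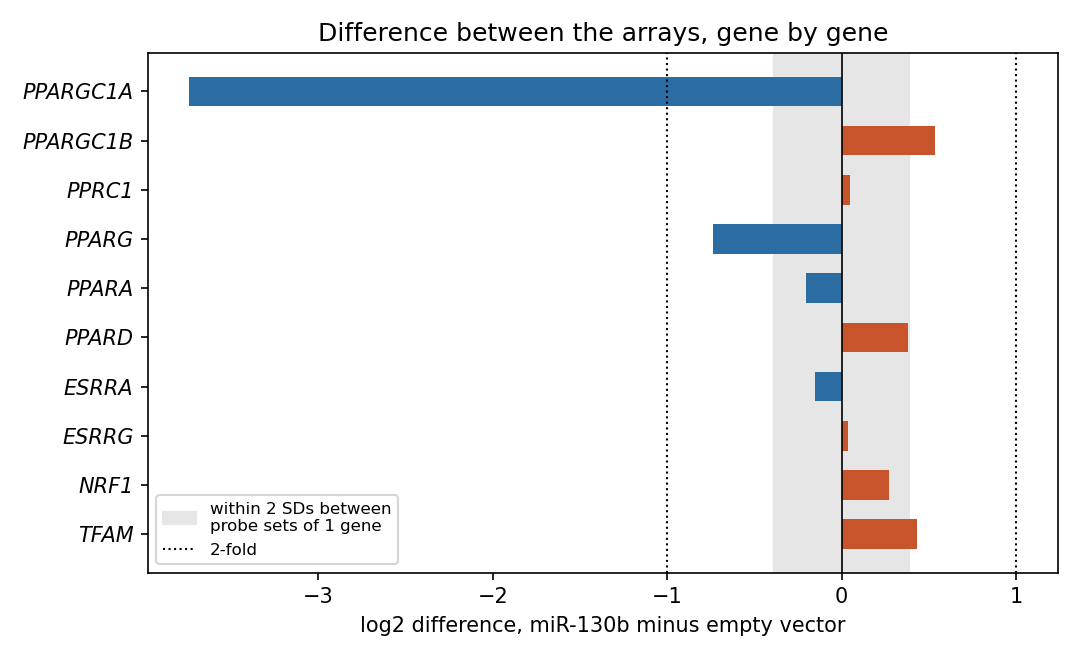
Log2 difference (miR-130b minus empty vector) of each of the 10 genes, as bars from 0, with the band of 2 SDs between probe sets of a gene (0.39 each way) in grey and 2-fold as dotted lines. PPARGC1A at -3.74 as measured is the only bar past 2-fold, and PPARG, PPARGC1B and TFAM are the others that leave the band.

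Counted over the set by sign alone, 6 genes were higher and 4 were lower, where 58.6% of all named genes were higher. The set's median difference was 0.04, against 0.05 for all named genes. At a threshold of 2-fold, 1 of the 10 was lower, PPARGC1A, where 1.37% of all named genes were lower by as much, and 0 were higher, where 1.06% of all named genes were. At 1.5-fold, 2 of the 10 were lower, PPARGC1A and PPARG, against 4.65% of all named genes, and 0 were higher, against 3.65%. Since PPARGC1A and PPARG were in the set with their values known, nothing is read from these shares. A filter that drops genes whose mean level is under 8.64, the median of the named genes, removes 3 members, PPARGC1A (mean 8.20), PPARA (mean 8.37) and ESRRG (mean 5.22). PPARGC1A misses that filter through its level on the miR-130b array, as its level with the empty vector was above it.

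**Figure D3:**
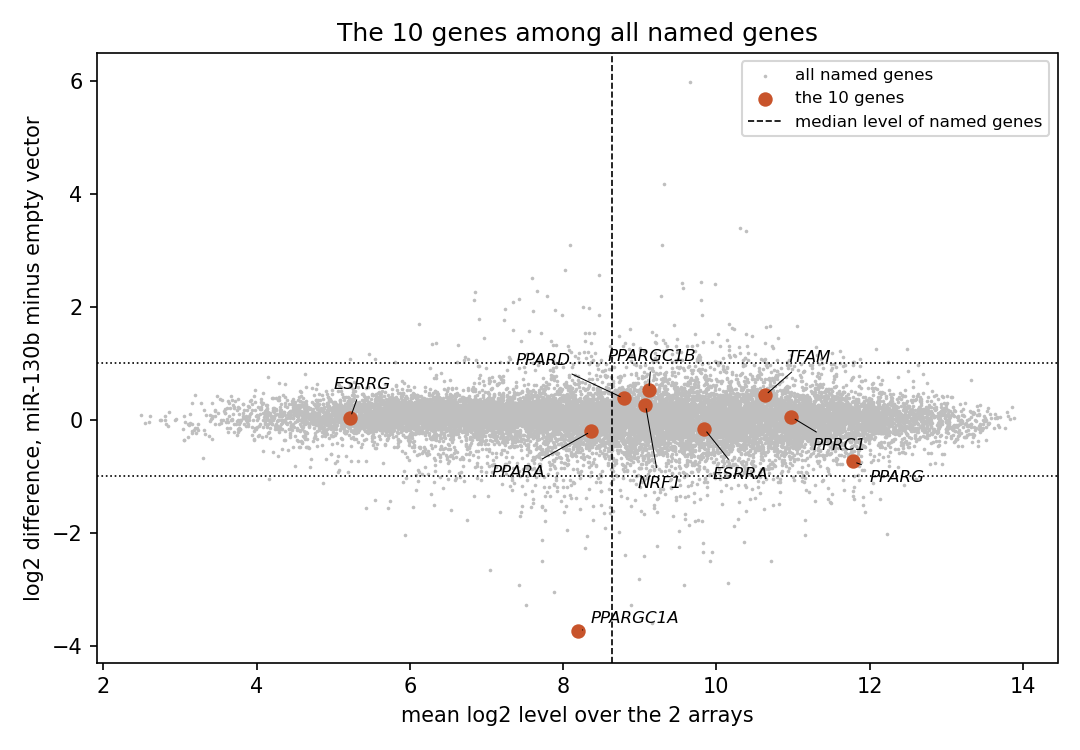
Log2 difference (miR-130b minus empty vector) against the mean log2 level over both arrays for all 18417 named genes (grey) and the 10 genes (labelled). PPARGC1A lies at the lower edge of the cloud, left of the dashed line at the median level of 8.64, and the other 9 lie between the dotted 2-fold lines.

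Neighbours were sought among protein-coding genes only, leaving out symbols that stand for open reading frames or numbered loci. The genes whose pair of log2 levels was nearest to that of PPARGC1A, by Euclidean distance over the 2 arrays, were RAB39B, A1CF, HOOK1, FGB and CYRIA, at distances of 0.66 to 1.11. RAB39B, a small GTPase of vesicle traffic, stood at 9.41 and 6.37. With miR-130b, RAB39B, HOOK1 (5.87), FGB (7.15) and CYRIA (6.47) lay under the 95th percentile of the olfactory receptor genes, as PPARGC1A did, and A1CF (7.24) just above it. The genes nearest to PPARG were ATF6, ADAM17, TMEM209, ANO10 and VCAN, at distances of 0.05 to 0.11. ATF6, a membrane-bound transcription factor of the unfolded protein response, stood at 12.11 and 11.44. Such distances set different probes side by side, so they describe the values on these arrays and not relative mRNA amounts.

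Genes around the set were taken from 6 lists of general knowledge, which held 128 genes, 113 of them measured. At least 2-fold higher were 2 of the 113 (1.77%, against 1.06% of all named genes), and at least 2-fold lower were 2 (1.77%, against 1.37%). The shares are near the background. For the counts by direction that follow, 58.6% of all named genes were higher with miR-130b by any amount and 40.6% lower.

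Among nuclear receptor partners and coregulators, 14 of 20 measured genes were higher and 6 lower, none by 2-fold in either direction, with a median of 0.14. THRA, a thyroid hormone receptor, was higher by 0.72 (9.90 against 10.62), the coactivator NCOA1 by 0.42 and the corepressor NR0B2 by 0.34. The thyroid hormone receptor THRB differed by -0.34, NR1H3, the oxysterol receptor LXRalpha, by -0.23, and RXRG by -0.30 at levels within the olfactory receptor range (6.12 and 5.82).

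Upstream regulators of PGC-1 had 11 of 22 measured genes higher and 11 lower, none by 2-fold, and a median of -0.0024. AKT1, a kinase of insulin signalling, differed by 0.50, SIRT1, the deacetylase that activates PGC-1alpha, by 0.49 (11.42 against 11.91) and STK11, the kinase upstream of AMPK, by 0.38. ATF2, which acts on the PPARGC1A promoter, differed by -0.37, MEF2A by -0.35 and the arginine methyltransferase PRMT1 by -0.29. CREB1, the cAMP-responsive activator of PPARGC1A, stood at 11.32 without and 11.18 with miR-130b.

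PPAR target genes held both of the listed genes that were at least 2-fold higher. Of 27 measured, 15 were higher and 12 lower, with a median of 0.02. PDK4, a kinase that shuts pyruvate out of the citric acid cycle, was 2.28-fold higher (10.92 with the empty vector, 12.11 with miR-130b). PLIN2, the lipid droplet coat protein, was 2.56-fold lower (12.59 against 11.23). These PPAR-regulated genes thus lay on opposite sides of the 2-fold lines. FABP4, a fat cell fatty acid carrier, passed the threshold at a difference of 1.07 but stood at 5.01 and 6.08, within the olfactory receptor range on both arrays, as did CYP4A11 (difference 0.58). ACSL5, an acyl-CoA synthetase, differed by -0.57 and the carnitine carrier SLC25A20 by -0.22. CPT1A, the gatekeeper of mitochondrial fatty acid oxidation, stood at 11.56 and 11.68.

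Of 7 gluconeogenic enzymes, 3 were higher and 4 lower, with a median of -0.01. PCK2, the mitochondrial phosphoenolpyruvate carboxykinase, was 2.75-fold lower (11.03 with the empty vector, 9.57 with miR-130b), the largest decrease in the 6 lists. PCK1 (6.40 and 6.55) and G6PC1 (5.15 and 5.12), the liver targets through which PGC-1alpha raises glucose output, lay within the olfactory receptor range on both arrays. FBP1 (difference 0.16) and FBP2 (difference 0.28) lay in it as well, and PC, pyruvate carboxylase, differed by -0.05.

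**Figure D4:**
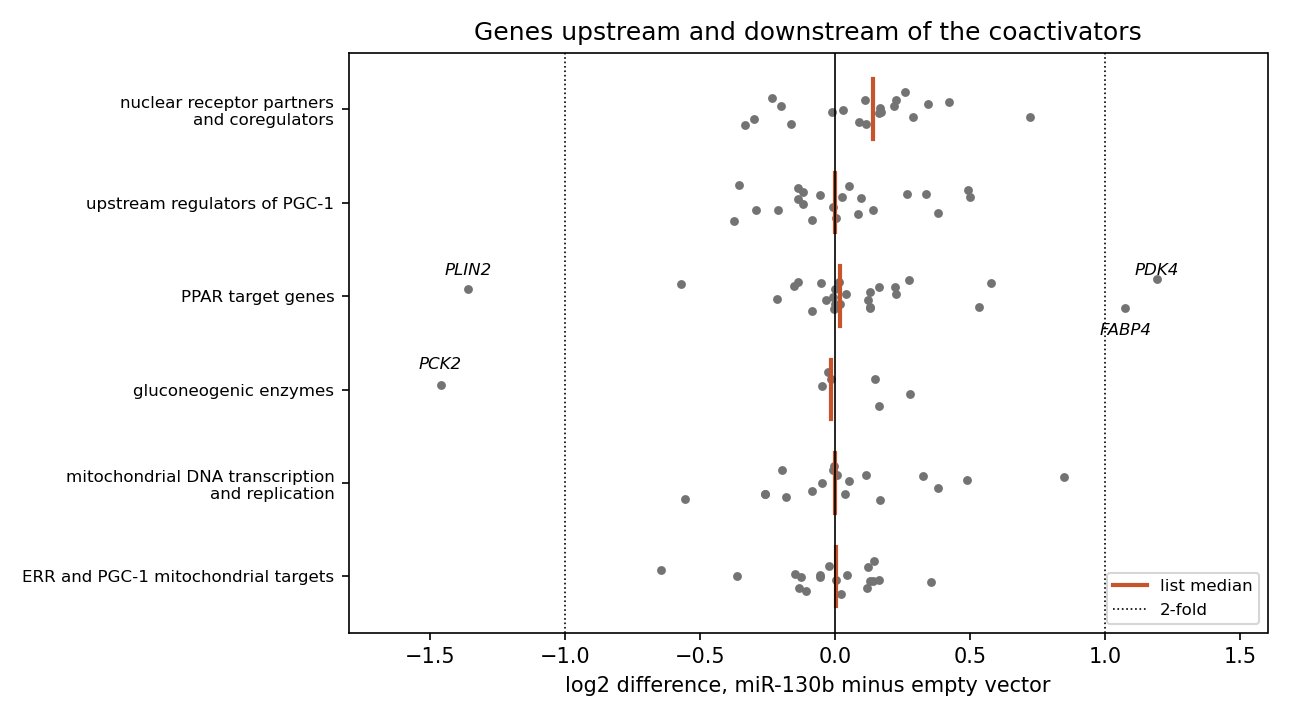
Log2 difference (miR-130b minus empty vector) of every measured gene of the 6 lists (points, spread vertically for legibility), with each list's median as a bar and 2-fold as dotted lines. The medians lie between -0.01 and 0.14, and the labelled genes PLIN2, PCK2, PDK4 and FABP4 are those past 2-fold.

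In the list for mitochondrial DNA transcription and replication, 9 of 18 genes were higher and 9 lower, none by 2-fold, with a median of 0.000042. Besides genes that copy and read mitochondrial DNA alongside TFAM, this list holds LONP1, GABPA, GABPB1 and GABPB2. DNA2, a nuclease-helicase that also works in the nucleus, differed by 0.85 (9.71 against 10.56), the mitochondrial exonuclease MGME1 by 0.49 and the primase-polymerase PRIMPOL by 0.38. LONP1, the matrix protease that degrades TFAM, differed by -0.55 (11.40 against 10.84), GABPB2 by -0.26 and the polymerase subunit POLG2 by -0.26. The mitochondrial transcription factor TFB2M stood at 11.38 and 11.18.

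Mitochondrial targets of ERR and PGC-1 were 10 higher and 9 lower of 19 measured, none by 2-fold, with a median of 0.0034. OPA1, which fuses inner membranes, differed by 0.35, IDH3A by 0.14 and UCP1, the brown fat uncoupling protein, by 0.16 within the olfactory receptor range. SOD2, the matrix superoxide dismutase, differed by -0.65 (11.20 against 10.56), CYCS, cytochrome c, differed by -0.36 and TXN2 by -0.15. ATP5F1B, a subunit of ATP synthase, stood at 13.58 and 13.52.

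NRF1 is known to act on the TFAM promoter, so the RefSeq windows from 250 bases before to 50 bases after each start (GRCh38.p14) were searched on both strands for a core NRF1 motif, GCGCA and GCGC with any 1 base between them. The table held 23 windows for 9 of the 10 members, NRF1 not among them, and 3 windows, of TFAM, ESRRA and PPARA, held it, while 5.78% of all 35116 windows did. The matches are shown with 10 bases on each side, in capitals on the gene's strand, so that their letters can be compared. In TFAM the motif lies on the opposite strand, so the capitals are its reverse complement. In ESRRA and PPARA the capitals read as the motif itself.
TFAM (chr10:58385337-58385366, plus strand): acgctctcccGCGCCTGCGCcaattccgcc
ESRRA (chr11:64305421-64305450, plus strand): tcgtccgggcGCGCAGGCGCcgcccgcccc
PPARA (chr22:46150758-46150787, plus strand): gggctgggcgGCGCATGCGCggggcccggg
Of the 3 genes with a match, TFAM differed by 0.43, and ESRRA at -0.16 and PPARA at -0.20 lay within 2 SDs between probe sets. The ERR element TCAAGGTCA (0.353% of all windows), the cAMP response element TGACGTCA (1.85%) and the PPAR direct repeat of AGGTCA with 1 base between its copies (0.0228%) were found in no window of a member, which says only that these letters are not there.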

How the data were processed

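The deposited table holds log2 expression values per probe set, a unit taken from the values themselves. Per the labels' protocols, cDNA was made with a whole-transcript kit and biotinylated for an Affymetrix array; those protocols describe excised tissue, although both samples are a cell line. What software, background correction and normalization were used is not given in the sources. Both columns have near-equal distributions, so a difference shows a gene's shift against the rest of its array.

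Of 33297 probe sets, 19460 had 1 gene symbol in the platform annotation, 1754 had several and 12083 were unnamed; 19429 of the 19460 matched a current RefSeq gene. Probe sets of a gene were averaged, giving 18417 genes with no filter on level. With 1 array per group, no test was run, and the number of arrays limits the precision. Genes were counted at 2-fold, and the counting was tested on simulated data.

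The members and lists were chosen with earlier results of these data known. Named were all members, the 3 largest differences each way per list and every listed gene past 2-fold. The 5 protein-coding genes nearest to PPARGC1A and to PPARG were named too. CREB1, CPT1A, TFB2M and ATP5F1B were added for their roles, and NIBAN1, A1CF and FGA for their rank, after values were seen. Alternatives were quantile normalization, cyclic loess (limma 3.58.1, R 4.3.3), median centring, the brightest probe set, filters at the median and 75th percentile, a 1.5-fold threshold and, added after seeing the data, a floor at the 95th percentile of olfactory receptor genes. Python 3.11.15 was used.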

Additional observations from a re-analysis of the deposited data

How the results depend on the processing

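PPARGC1A differed by -3.79 to -2.89 over the settings that kept it, and the floor at the 95th percentile of olfactory receptor genes, added after seeing the data, gave the -2.89. PPARG lay between -0.79 and -0.72, PPARGC1B between 0.48 and 0.56 and TFAM between 0.38 and 0.46. The sign of ESRRG turned under cyclic loess (-0.00044) and median centring (-0.016), and that of PPRC1 under median centring (-0.0024); all 3 values are far under the SD between probe sets. The count of members at least 2-fold lower was 0 with the filter at the median level and 0 with that at the 75th percentile, since both remove PPARGC1A, and 2 at 1.5-fold. Of all named genes, 122 were at least 2-fold higher and 147 lower with the filter at the median level, 40 and 60 with that at the 75th percentile, where fewer genes are counted, and 672 and 857 passed 1.5-fold. The filters keep 7 and 3 of the 10 members, so the others have no value under them. Each member has 1 probe set, so the brightest probe set changes none. Of 134 alternative values, 124 moved by less than the SD between probe sets or, for counts, by at most 1.5 times. Many of these could not move further, so the share is no measure of robustness. The filters leave the difference of a kept gene unchanged, and median centring shifts every difference by the same 0.05. No paired analysis was possible because each group has 1 array, and for the same reason no replicate could be left out.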
